A study of Mus musculus with 12 samples.

Results

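Chemokines and their receptors were followed in the hearts of mice with altered Lemd2, a protein of the inner nuclear membrane. A gene belonged to this set when its symbol began with Ccl, Cxcl, Ccr or Cxcr and a digit, began with Ackr and a digit, or was Cx3cl1 or Cx3cr1. The rule took 60 of the 24062 genes in the count table and used no measured value. They were 24 CC ligands, 13 CXC ligands, 1 CX3C ligand, 11 CC receptors, 6 CXC receptors, 1 CX3C receptor and 4 atypical receptors. Polyadenylated RNA of whole hearts had been sequenced in 4 groups of 3 mice. The adult mice were 2 months old and were either WT or KI/KI, the latter homozygous in every cell for the Lemd2 variant c.T38>G, which changes a leucine of the LEM domain to arginine. The other mice were taken at postnatal day 1 (P1). Of these, the floxed controls carried loxP-flanked Lemd2 without Cre, and the cKO mice carried the same alleles with Myh6-Cre, which is driven by the cardiac α-myosin heavy chain promoter and therefore deletes Lemd2 in cardiomyocytes and leaves other heart cells with the gene.

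Chemokines are small secreted or membrane-tethered proteins that steer leukocytes through G protein-coupled receptors. CC ligands such as Ccl2 draw monocytes, CXC ligands such as Cxcl1 and Cxcl2 draw neutrophils, and Cxcl12 holds progenitor and immune cells in place and guides vessel growth. Atypical receptors bind chemokines without G protein signalling and mostly remove them from the tissue. In the heart, resident macrophages, endothelial cells and fibroblasts are known sources of ligands, and leukocytes carry most of the receptors.

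Library totals ran from 37063669 to 44789753 counts, of which the 60 genes took between 10090 and 27701 counts per heart, or 0.0255% to 0.0642%. At these depths 3 counts, taken as the floor, correspond to at most 0.0809 CPM, a limit that covers counting error only. Levels are CPM, read counts scaled to the TMM-normalised library size, with the 6 hearts of a comparison normalised together, and groups are given as mean ± SD of 3 hearts. Lemd2 itself was at 28.2, 30.7 and 29.7 CPM in WT hearts against 22.8, 22.5 and 22.1 CPM in KI/KI hearts (edgeR adjusted p = 0.181). At P1 it was at 27.6, 28.2 and 28.2 CPM in floxed hearts against 7.60, 14.7 and 12.5 CPM in cKO hearts (edgeR adjusted p = 0.0142). Several hearts stood apart. The 4 Y-linked genes summed to 0.0921 CPM in cKO heart 4 and to 245 CPM or more in each of the other hearts. Lung epithelium markers summed to 23.4 CPM or more in WT heart 3, KI/KI heart 4, floxed hearts 1 and 2 and cKO hearts 4 and 6, and to under 1 CPM in the rest. Cardiomyocyte markers summed to 57364 to 63643 CPM in WT and 40632 to 56784 CPM in KI/KI hearts, and to 38873 to 45061 CPM in floxed and 31725 to 35117 CPM in cKO hearts, lower in all mutant hearts of either model.

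Most of the 60 genes were silent or at low levels. Counts were 0 in all 12 libraries for Ccl21a, Ccl21b, Ccl21c and Ccl27b, which have near-identical copies in the mouse genome, so that these zeros are uncertain. The edgeR filter on low counts left 32 of the 60 genes for the adult comparison and 33 for the P1 comparison. Among genes left out, the highest group mean was 0.351 CPM in adults and 0.329 CPM at P1. In 28 genes the mean reached 1 CPM in at least 1 of the 4 groups.

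Cxcl12 and its scavenger Ackr3 dominated the set at both ages. Scaled per kilobase of annotated exon so that genes could be compared, the mean level of Cxcl12 was 40.6 CPM per kb in WT and 16.8 in floxed hearts, and that of Ackr3 was 26.2 and 12.8. Next in WT hearts came Cxcl14, a constitutive ligand of fibroblasts and epithelia, at 10.1 CPM per kb, followed by Ccl6 at 6.72 and the signalling Cxcl12 receptor Cxcr4 at 4.64. In floxed hearts they were followed by Cxcr4 at 3.51 CPM per kb, Cxcl16 at 2.69 and the fractalkine receptor Cx3cr1 at 2.25.

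The first comparison asked whether loss of Lemd2 in cardiomyocytes was accompanied by a change of chemokine transcripts at P1. The ligands Ccl2, Cxcl16 and Ccl4 rose in cKO hearts, each by more than 2-fold, and no member fell. These were 3 of the 33 genes tested, 3 higher and 0 lower, by edgeR's quasi-likelihood test with Benjamini-Hochberg adjustment over all genes. Over all 15317 genes tested, the same rule called 16.9%, with 9.32% higher and 7.57% lower, so that the share of members called was not above that of all genes. By more than 2-fold, 2.85% of all genes rose. The median log2 fold change of the 33 members was 0.64, beside -0.0043 over all genes, with 23 above 0 and 10 below. Ligands had a median of 1.10 over 19 genes and receptors of 0.40 over 14, and no receptor was called. Without cKO heart 4, which stood apart in its Y-linked genes, the members called were Ccl2 and Cx3cl1 higher and Ccl27a lower. Lung markers were high in that heart, but higher still in floxed hearts 1 and 2. In 11 members all 3 cKO hearts lay above all 3 floxed hearts and in 2 all lay below, where 20.5% and 19.3% of all genes did so.

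**Figure D1:**
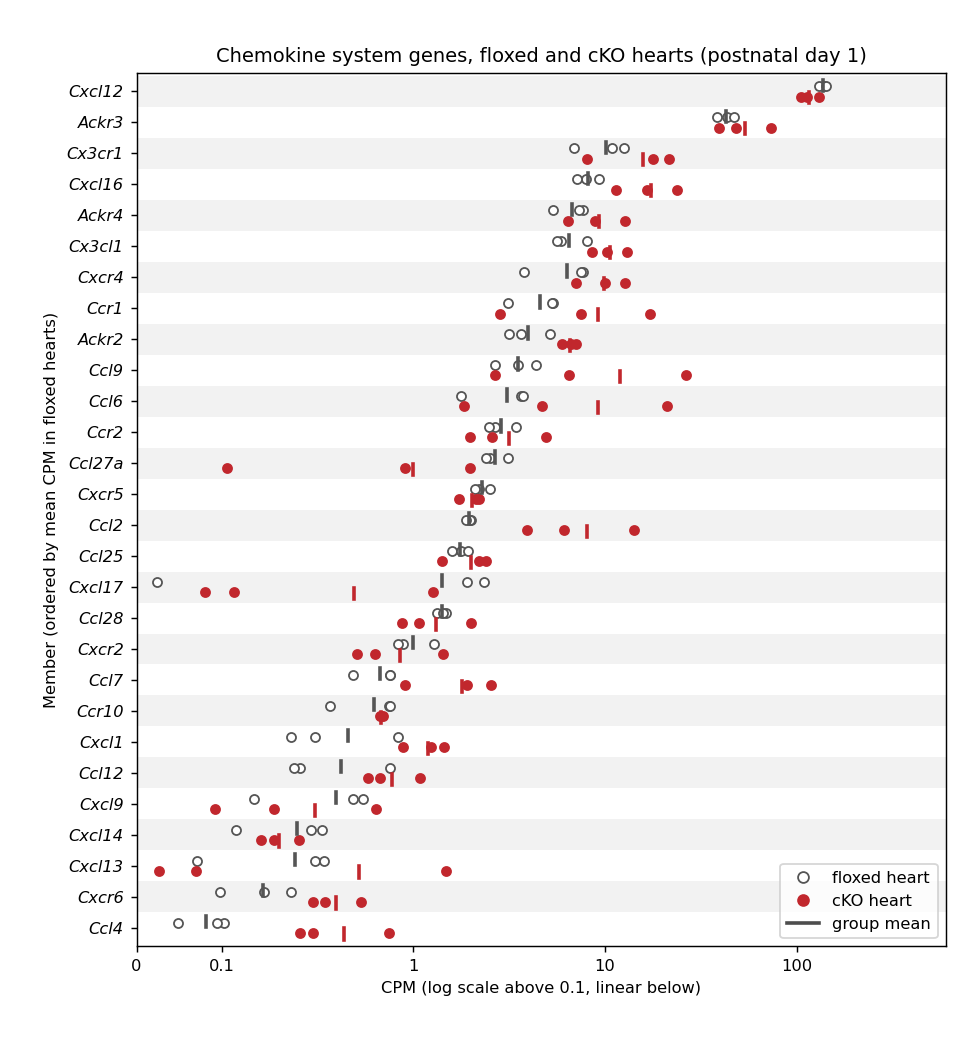
CPM of the named members that were tested or reached 1 CPM at P1, on an axis that is logarithmic above 0.1 and linear below, with 3 floxed hearts as open points, 3 cKO hearts as red points and the group means as short lines. The cKO hearts lie to the right of the floxed hearts for Ccl2, Cxcl16 and Ccl4, and the red points of Ccl9 and Ccl6 spread from the floxed range to 26.6 and 21.2 CPM.

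Ccl2, the principal monocyte attractant and ligand of Ccr2, lies on chromosome 11 of GRCm38 (chr11:82035571-82037453, plus strand). The 3 floxed hearts had 2.00, 1.99 and 1.87 CPM, and cKO hearts 4, 5 and 6 had 14.1, 6.08 and 3.93 CPM. The groups did not overlap, and cKO heart 4 was the highest. The mean went from 1.95 ± 0.0691 to 8.04 ± 5.35 CPM, a log2 fold change of 2.05 (standard error 0.49, edgeR adjusted p = 0.0345). Without cKO heart 4 the change was 1.37 and still called (edgeR adjusted p = 0.0246), whereas without floxed heart 1, 2 or 3 or cKO heart 5 the call was lost at changes of 2.02 to 2.22 (edgeR adjusted p = 0.0760 to 0.131).

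Cxcl16 encodes a membrane-anchored ligand of Cxcr6 (chr11:70453983-70459984, minus strand). The floxed hearts gave 9.33, 7.97 and 7.11 CPM and the cKO hearts 23.9, 16.6 and 11.5 CPM, again without overlap and with heart 4 highest. The log2 fold change was 1.10 (standard error 0.27, edgeR adjusted p = 0.0360). Without cKO heart 4 it was 0.80 and the call was lost (edgeR adjusted p = 0.053), as it was without each of the other hearts except cKO heart 6 (edgeR adjusted p up to 0.112). Its receptor Cxcr6 stood at 0.165 ± 0.0663 CPM in floxed and 0.394 ± 0.125 CPM in cKO hearts, with an edgeR adjusted p of 0.107.

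Ccl4 and Ccl3 are neighbouring genes for macrophage inflammatory proteins, which draw monocytes and T cells. Ccl4 (chr11:83662584-83664683, plus strand) had 4, 2 and 4 counts in floxed hearts and 13, 11 and 28 counts in cKO hearts, a mean of 0.435 CPM in cKO hearts, so that its call rests on few reads. Its log2 fold change was 2.32 (standard error 0.65, edgeR adjusted p = 0.0475), and the call was lost with any of the other 5 hearts left out (edgeR adjusted p = 0.0588 to 0.162), while without cKO heart 4 the gene no longer passed the low-count filter. Ccl3, named for its place beside Ccl4 (chr11:83647844-83649355, minus strand), was at 9, 8 and 5 counts in floxed and 29, 16 and 17 in cKO hearts, with an edgeR adjusted p of 0.0616.

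The remaining ligands of the monocyte attractant cluster on chromosome 11, which holds Ccl2, Ccl7, Ccl11, Ccl12 and Ccl8 between 82035571 and 82116799, were not called at P1. Of these, Ccl7 and Ccl12 were tested, while Ccl11 and Ccl8 were removed by the low-count filter. For Ccl7 the floxed hearts gave 0.487, 0.760 and 0.759 CPM and the cKO hearts 2.56, 1.91 and 0.910 CPM, without overlap (log2 fold change 1.43, edgeR adjusted p = 0.0619). Ccl12 overlapped between the groups, at 0.418 ± 0.296 and 0.778 ± 0.267 CPM. Ccl11, an eotaxin, had at most 14 counts in any P1 heart and Ccl8 at most 3. Ccr2, the monocyte receptor of Ccl2, was at 2.86 ± 0.501 CPM in floxed and 3.16 ± 1.56 CPM in cKO hearts.

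Ccl6 and Ccl9, mouse ligands of Ccr1 made by myeloid cells, were highest in cKO heart 4. Ccl9 gave 3.51, 4.36 and 2.66 CPM in the floxed group and 26.6, 6.48 and 2.68 CPM in cKO hearts 4, 5 and 6. For Ccl6 the values were 3.66, 3.75 and 1.78 CPM against 21.2, 4.68 and 1.85 CPM. Ccr1 itself was at 5.33, 5.27 and 3.11 CPM against 17.2, 7.46 and 2.84 CPM. In all 3 genes cKO heart 4 stood above every other heart and cKO heart 6 lay in or below the floxed range, and none passed the test (edgeR adjusted p = 0.157, 0.218 and 0.261). Without heart 4 the log2 fold changes were 0.41 for Ccl9, 0.12 for Ccl6 and 0.20 for Ccr1, and without heart 6 Ccl9 and Ccr1 were called at 2.22 and 1.42. Over the 33 tested members, cKO heart 4 was the highest of its group in 23 and heart 6 the lowest in 20.

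The neutrophil and interferon-linked CXC ligands were scarce at P1. Cxcl1 stood at 0.231, 0.833 and 0.308 CPM in the floxed group and 1.45, 0.885 and 1.23 CPM in cKO hearts, just without overlap (log2 fold change 1.37, edgeR adjusted p = 0.0843). Its neighbour Cxcl2, singled out after its values were seen, had 2, 1 and 1 counts in floxed and 29, 8 and 5 counts in cKO hearts, too few for the low-count filter. Cxcl10, an interferon-induced ligand of Cxcr3 whose means stayed under 1 CPM, was at 0.205, 0.245 and 0.474 CPM and then 0.714, 0.606 and 1.23 CPM, without overlap (log2 fold change 1.42, edgeR adjusted p = 0.0752). Cxcl9, the related ligand, was at 0.393 ± 0.215 and 0.307 ± 0.294 CPM. Cxcr2, the neutrophil receptor of Cxcl1 and Cxcl2, was at 0.998 ± 0.247 CPM in floxed and 0.855 ± 0.5 CPM in cKO hearts.

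The promoters shown, of Cxcl1, Cxcl2, Cxcl10 and Ackr2, all hold a match to the consensus described next. In each of these genes all cKO hearts lay above all floxed hearts, and Ackr2 also stood apart in adults. Other members that stood apart upwards at P1, such as Ccl3 and Cx3cl1, are not shown. A link between matches and levels was not tested. The 240 bases before the RefSeq start are given 5′ to 3′ on the gene's strand from RefSeq on GRCm38.p6, with matches to the 10-base NF-κB consensus on either strand in capitals. NF-κB is a transcription factor of inflammatory signalling. Such a match lay in the 250 bases before the start in 3.90% of 32851 promoter entries and in 9 of the 44 members with an entry. Beside those shown they were Ccl9, Ccl20, Cxcl3, Ccr3 and Ccr6, of which Ccl9, Ccr3 and Ccr6 overlapped between floxed and cKO hearts. Ccl2, Cxcl16, Ccl4 and Ccl7 had no promoter entry, so they were not searched and no sequence is shown for them.
Cxcl1 (chr5:90891005-90891244, plus strand): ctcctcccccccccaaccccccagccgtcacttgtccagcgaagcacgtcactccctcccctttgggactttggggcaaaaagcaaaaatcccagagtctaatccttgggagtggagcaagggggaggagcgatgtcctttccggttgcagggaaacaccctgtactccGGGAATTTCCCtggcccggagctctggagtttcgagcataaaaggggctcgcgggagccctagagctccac
Cxcl2 (chr5:90903659-90903898, plus strand): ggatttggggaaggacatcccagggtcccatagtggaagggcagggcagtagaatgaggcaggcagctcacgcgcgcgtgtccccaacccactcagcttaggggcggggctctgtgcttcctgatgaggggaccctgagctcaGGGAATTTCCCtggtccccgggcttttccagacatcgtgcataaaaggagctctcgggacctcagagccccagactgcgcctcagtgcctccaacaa
Cxcl10 (chr5:92348890-92349129, minus strand): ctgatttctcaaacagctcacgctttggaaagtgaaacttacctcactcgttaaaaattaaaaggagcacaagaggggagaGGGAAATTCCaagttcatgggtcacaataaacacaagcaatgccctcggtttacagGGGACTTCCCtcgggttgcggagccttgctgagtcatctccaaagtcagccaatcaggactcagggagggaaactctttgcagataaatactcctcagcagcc
Ackr2 (chr9:121898115-121898354, plus strand): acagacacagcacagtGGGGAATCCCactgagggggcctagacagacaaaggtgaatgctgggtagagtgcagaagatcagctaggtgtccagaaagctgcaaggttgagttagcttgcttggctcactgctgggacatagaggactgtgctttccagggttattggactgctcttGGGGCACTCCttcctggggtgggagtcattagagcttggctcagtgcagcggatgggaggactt
In Cxcl1 and Cxcl2 matches on the 2 strands overlap to make the same 11 capitals, 71 and 97 bases before the start, and Cxcl10 and Ackr2 hold a pair of separate matches. These are letter matches, and no binding was measured.

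Cx3cl1, the atypical receptors and the Cxcl12 axis did not pass the test. Cx3cl1, fractalkine, which endothelial cells display to leukocytes, measured 5.92, 5.61 and 8.04 CPM in floxed and 8.54, 13 and 10.3 CPM in cKO hearts, without overlap (log2 fold change 0.70, edgeR adjusted p = 0.0644). Ackr2, which clears inflammatory CC chemokines, was at 3.15, 3.65 and 5.14 CPM and then 6.63, 7.06 and 5.94 CPM, also without overlap (log2 fold change 0.71, edgeR adjusted p = 0.0560). The abundant pair of the set differed little. Cxcl12 was lower in all 3 cKO hearts, at 117 ± 13 against 137 ± 5.22 CPM (log2 fold change -0.24, edgeR adjusted p = 0.129), and Ackr3 was at 53.7 ± 17.5 against 43.0 ± 4.24 CPM. Cxcr4 was at 9.89 ± 2.84 against 6.34 ± 2.21 CPM, Cx3cr1 at 15.9 ± 6.97 against 10.1 ± 2.93 CPM and Ackr4 at 9.33 ± 3.16 against 6.76 ± 1.24 CPM, all with overlapping groups.

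Ccl27a, a ligand of Ccr10 best known from skin, was the other member whose groups stood apart downwards. It had 122, 102 and 101 counts in floxed hearts and 86, 39 and 4 counts in cKO hearts, a log2 fold change of -1.37 (standard error 0.58, edgeR adjusted p = 0.143). Without cKO heart 4 it was -2.32 with an edgeR adjusted p of 0.0419. Reads of Ccl27a may be shared with its near copy Ccl27b, which was listed at 0. A level close to 0 also appeared in 1 adult heart, KI/KI heart 5, with 4 counts beside 57 and 32 in the other KI/KI hearts and 27, 34 and 46 in WT hearts. Ccl25, Ccl28, Cxcr5 and Ccr10 had means between 0.623 and 2.27 CPM in each P1 group, with overlapping hearts.

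The choice of test mattered at P1. DESeq2 called 7 members, among them Ackr2, Ccl7 and Cx3cl1 beside the 3 above, where it called 24.6% of all genes, and limma-voom called none. With all 12 hearts in a single edgeR fit 6 members were called, Ccl2, Cxcl16, Ccl3, Ccl7, Cxcl1 and Cxcl10.

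Markers of several cell types also differed between floxed and cKO hearts, first those of macrophages and monocytes. Of 10 listed markers 9 were in the table and none was at 0 in all P1 hearts. Their sum was 98.8 to 122 CPM in floxed hearts and 225, 160 and 125 CPM in cKO hearts 4, 5 and 6. Means were higher in cKO hearts for 8 of the 9, and Emr1 (6.20 to 13.3 CPM), Cd68 (4.95 to 10.1 CPM) and Lyz2 (21.5 to 39.6 CPM) passed edgeR's test. Fibroblast markers summed to 3103 to 3264 CPM in floxed and 4546 to 4962 CPM in cKO hearts. Of these 6 markers, 3 were called higher, and the other 3 had log2 fold changes below 0. Blood endothelium markers summed to 1236 to 1324 and 1434 to 1721 CPM, with 2 of 6 called higher and log2 fold changes below 0 in 2. Ccl2 and Cxcl16 were highest in cKO heart 4 and lowest in cKO heart 6. So were the marker sums of macrophages, of lymphatic endothelium (250, 181 and 142 CPM) and of mast cells (26.8, 15.0 and 7.92 CPM). The fibroblast sum was highest in cKO heart 5 and the blood endothelium sum in cKO heart 6. Of 6 lymphatic endothelium markers 1 was called higher and 1 lower. All 5 mast cell markers had lower means in cKO hearts, with 0 called and a median log2 fold change of -0.67. Of the 6 cardiomyocyte markers 2 were called lower. T cell markers summed to 1.21 to 2.52 CPM in floxed and 2.05 to 3.69 CPM in cKO hearts. Means were higher in cKO hearts for only 3 of these 7 markers, 2 were tested, and Cd4 was called higher. Neutrophil markers summed to 10.7 to 20.9 and 10.2 to 16.7 CPM. In RNA of whole hearts, more cells of a type and more RNA per cell cannot be told apart. The part of these cell types in the values of Ccl2 and the other members was not tested.

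Genes around the chemokines were read from lists written with earlier results of these data known. Among 34 genes of signalling below chemokine receptors, 7 rose and 1 fell in cKO hearts. The largest change was that of Rgs1, a brake on G protein signalling in leukocytes, at 0.154, 0.270 and 0.213 CPM in floxed and 3.43, 2.87 and 2.25 CPM in cKO hearts (log2 fold change 3.73, standard error 0.34). Pik3cd, a leukocyte phosphoinositide kinase, rose from 5.82 ± 0.181 to 11.4 ± 1.82 CPM, and Gnai3 and Gnb1, subunits of the coupled G proteins, rose from 106 ± 2.62 to 143 ± 16.7 and from 413 ± 31.5 to 523 ± 7.34 CPM. Of 27 tested inducers of chemokine transcription 5 rose and 0 fell. They included the immediate early factor Fos, from 4.41 ± 1.96 to 25.2 ± 5.91 CPM, the TNF receptor Tnfrsf1b, from 7.51 ± 1.49 to 13.7 ± 2.61 CPM, the interleukin receptor Il17ra, from 5.33 ± 0.525 to 8.58 ± 1.51 CPM, and the myeloid factor Cebpb, from 3.95 ± 0.587 to 9.74 ± 4.32 CPM. The fifth, named although its adjusted p was the largest of them, was the cytokine Il1b, from 0.231 ± 0.079 to 0.697 ± 0.21 CPM. Among 18 tested genes of leukocyte adhesion and homing 3 rose, the integrins Itgb1 and Itgb2 and the junction protein Pecam1, and 0 fell. Of 10 tested chemokine and chemokine-like genes outside the rule, Mif rose from 48.1 ± 4.06 to 77.6 ± 11.8 CPM and Ccrl2 fell from 8.92 ± 0.896 to 5.51 ± 1.19 CPM. The share called among these lists lies beside 16.9% of all genes, and list medians were 0.32, 0.21, 0.16 and 0.40 in the order given.

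The second comparison asked the same of adult hearts with the c.T38>G allele. No member was called in KI/KI hearts by edgeR, where the rule called 0% of 14592 genes, and the smallest adjusted p of a member was 0.196. An unadjusted p under 0.05 was found for 9 members, 8 higher and 1 lower, beside 16.2% of all genes. DESeq2 called 3, with Ackr2 and Ackr4 higher and Cxcl14 lower (adjusted p = 0.0281, 0.0277 and 0.00169), where it called 3.56% of all genes, and limma-voom called none. The median log2 fold change of the 32 members tested was 0.29, beside 0.0023 over all genes, with 25 above 0 and 7 below. All 3 KI/KI hearts lay above all 3 WT hearts in 7 members, where 11.5% of all genes did so. With the 1 member that lay below, 8 members stood apart in either direction, beside 22.4% of all genes.

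**Figure D2:**
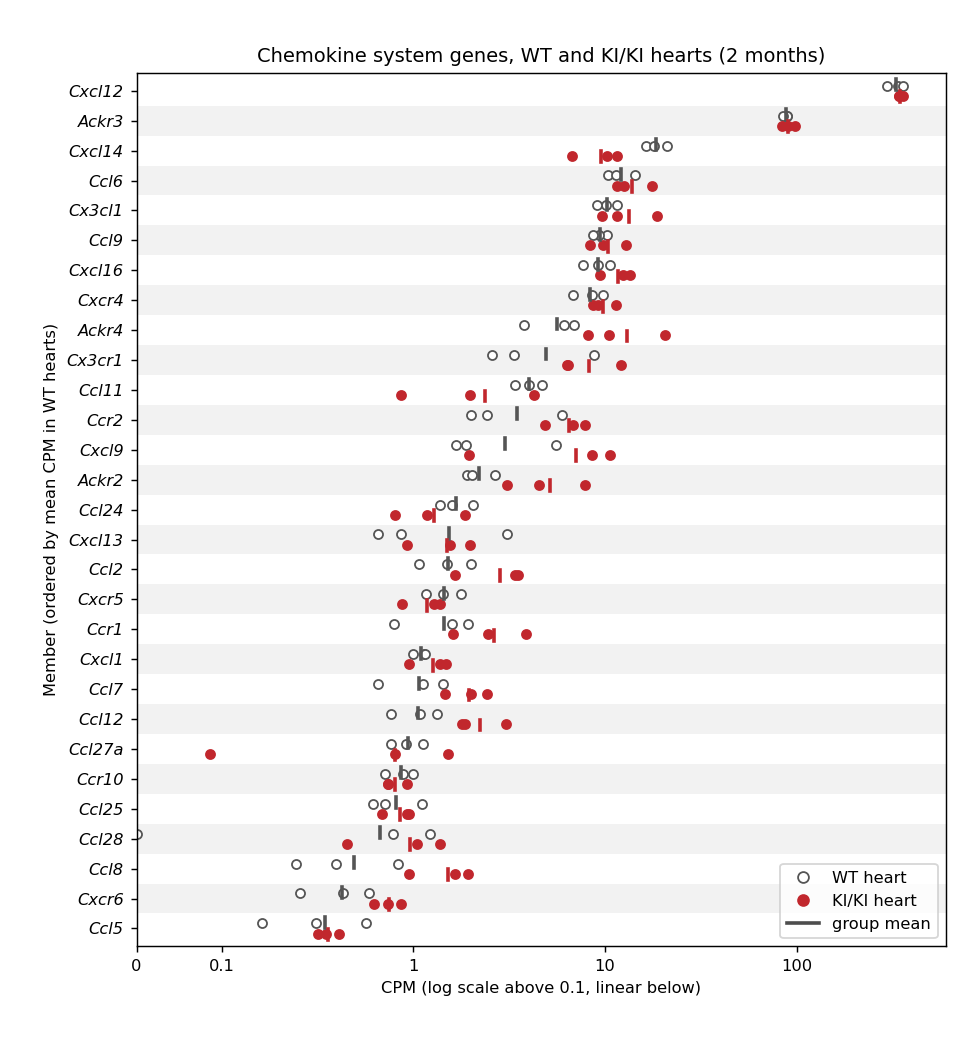
CPM of the named members that were tested or reached 1 CPM in adult hearts, on an axis that is logarithmic above 0.1 and linear below, with 3 WT hearts as open points, 3 KI/KI hearts as red points and the group means as short lines. The KI/KI points of Cxcl14 lie below the WT points, those of Ackr2 and Ackr4 lie above them, and Cxcl12 and Ackr3 coincide.

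Cxcl14 was the member with the smallest p. It was at 16.5, 18.1 and 21.0 CPM in WT hearts and 10.3, 6.69 and 11.6 CPM in KI/KI hearts. The groups did not overlap, with a log2 fold change of -0.97 (standard error 0.20, edgeR adjusted p = 0.196). At P1 it was at 0.249 ± 0.114 and 0.200 ± 0.0479 CPM in floxed and cKO hearts, near the floor.

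The atypical receptors Ackr2 and Ackr4 lay higher in KI/KI hearts without passing edgeR's test. Ackr2 was at 1.9, 2.67 and 2.04 CPM in WT and 3.10, 7.86 and 4.50 CPM in KI/KI hearts (log2 fold change 1.24, edgeR adjusted p = 0.238). Ackr4, which clears Ccl19, Ccl21 and Ccl25, was at 6.09, 6.91 and 3.78 CPM against 8.20, 20.6 and 10.5 CPM (log2 fold change 1.24, edgeR adjusted p = 0.245). Neither pair of groups overlapped, and KI/KI heart 5 was the highest in each. The other atypical receptors overlapped, with Ackr3 at 87.6 ± 2.35 and 90.4 ± 7.16 CPM and Ackr1, outside the naming rule, at 0.325 ± 0.0623 and 0.342 ± 0.13 CPM.

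Of the monocyte attractant cluster, 3 genes stood apart. Ccl8 was at 0.396, 0.243 and 0.834 CPM in WT and 0.952, 1.93 and 1.65 CPM in KI/KI hearts, and Ccl12 at 0.765, 1.32 and 1.08 CPM against 1.80, 3.05 and 1.85 CPM, each with an edgeR adjusted p of 0.236. Ccl7 was at 0.651, 1.43 and 1.13 CPM against 1.46, 2.43 and 2.00 CPM (edgeR adjusted p = 0.274). Ccl2 was at 1.08, 2.00 and 1.5 CPM against 1.64, 3.38 and 3.50 CPM, with KI/KI heart 4 inside the WT range (log2 fold change 0.91, edgeR adjusted p = 0.287). Ccl11, by contrast, was at 4.03 ± 0.651 CPM in WT and 2.37 ± 1.73 CPM in KI/KI hearts, and its fellow eotaxin Ccl24 at 1.67 ± 0.350 and 1.28 ± 0.532 CPM. The receptors Ccr2 and Ccr1 overlapped between the groups, with Ccr2 at 3.46 ± 2.15 and 6.50 ± 1.51 CPM and Ccr1 at 1.44 ± 0.587 and 2.65 ± 1.14 CPM. In Ccr2 WT heart 3 was far above the other WT hearts, at 5.93 CPM beside at most 2.43 CPM.

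Interferon-linked and tethered ligands varied between KI/KI hearts. Cxcl10 was at 0.340, 0.270 and 0.270 CPM in WT and 0.344, 0.910 and 1.08 CPM in KI/KI hearts, apart only by the margin of KI/KI heart 4 (edgeR adjusted p = 0.260). Cxcl9 was at 5.52, 1.89 and 1.67 CPM against 1.96, 10.7 and 8.53 CPM. Heart 4 was thus at control level for both genes and hearts 5 and 6 above it, except that WT heart 1 was also raised for Cxcl9. Cxcr6 was at 0.425 ± 0.167 and 0.744 ± 0.120 CPM without overlap (edgeR adjusted p = 0.307), beside its ligand Cxcl16 at 9.16 ± 1.5 and 11.7 ± 2.10 CPM. Cx3cl1 was at 10.3 ± 1.25 and 13.3 ± 4.82 CPM and Cx3cr1 at 4.90 ± 3.40 and 8.29 ± 3.29 CPM.

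Apart from Cxcl14, the most abundant members overlapped between the groups. Cxcl12 was at 332 ± 31.1 and 347 ± 10.2 CPM, Cxcr4 at 8.40 ± 1.53 and 9.74 ± 1.48 CPM, Ccl6 at 12.1 ± 2.09 and 13.9 ± 3.17 CPM and Ccl9 at 9.42 ± 0.762 and 10.3 ± 2.33 CPM. Cxcl1, Ccl25, Ccr10, Cxcr5 and Ccl5 were each at 1.77 CPM or less in every adult heart with overlapping groups. Ccl28, a mucosal ligand of Ccr10, had 0 counts in WT heart 2 and 43 and 32 in the other WT hearts, and 17, 64 and 42 in KI/KI hearts.

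Macrophage markers summed to 175 to 294 CPM in WT and 295 to 365 CPM in KI/KI hearts, with higher means for 7 of the 9 and 0 called, and none at 0 in all adult hearts. KI/KI heart 5 had the highest sum and was the highest of its group in 17 of the 32 members. Fibroblast markers summed to 1119 to 1298 CPM in WT and 1311 to 2157 CPM in KI/KI hearts, again highest in heart 5, which had the lowest cardiomyocyte sum. The part of these cells in the adult values was not tested. No gene of the 4 neighbouring lists was called in KI/KI hearts, with 11, 33, 25 and 18 genes tested. List medians were 0.08, 0.17, 0.16 and 0.38 for chemokine and chemokine-like genes outside the rule, signalling, inducers and adhesion.

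The models were then set side by side. Of 28 members tested in each comparison, 19 were higher in both, 3 lower in both and 6 opposite, beside 31.9% of all 14244 genes higher and 31.1% lower in both. Ccl7, Cxcl10, Cxcr6 and Ackr2 stood above their controls in every mutant heart of either model, 4 of the 28, where 4.58% of all genes did so. The comparisons share no hearts. Tested as a difference between the models over all 12 hearts, which differ in age, allele and Cre together, no member of 36 was called by edgeR, where 2.43% of all genes were. The smallest adjusted p was 0.240, 2 members had an unadjusted p under 0.05, and neither DESeq2 nor limma-voom called any. Those 2 were Cxcl1, whose change was larger in cKO by 1.15 on the log2 scale (standard error 0.51), and Cxcl16, larger by 0.74 (standard error 0.33). For Ccl2 the difference was 1.14 (standard error 0.68, edgeR adjusted p = 0.378), and 0.48 without cKO heart 4.

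**Figure D3:**
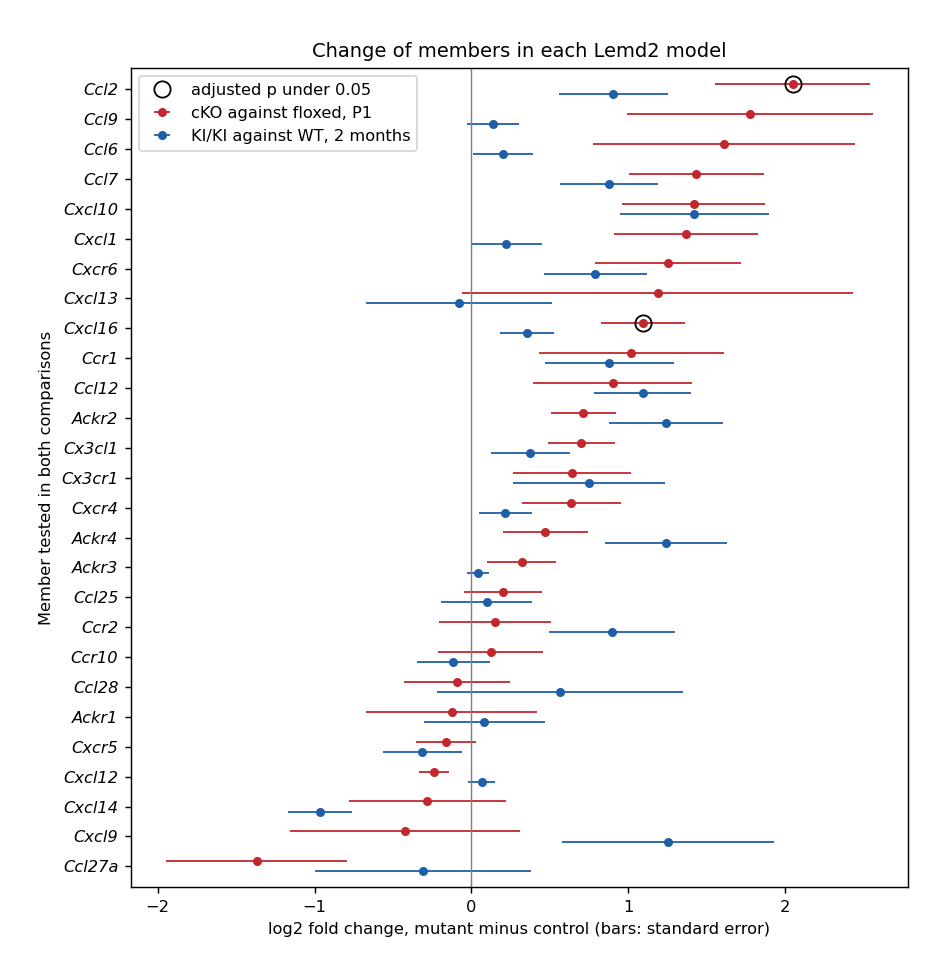
Log2 fold change of mutant over control hearts with its standard error for 27 members tested in each comparison, with cKO against floxed hearts at P1 in red and KI/KI against WT hearts at 2 months in blue. Black rings mark Ccl2 and Cxcl16, with an adjusted p under 0.05 at P1, and most red and blue points lie to the right of 0.

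The last contrast was between control hearts of the 2 ages. Floxed hearts at P1 were set against WT hearts at 2 months on a CPM scale common to the 12 hearts, where age and the floxed allele cannot be told apart. Of 36 members tested, edgeR called 20, with 2 higher and 18 lower at P1. The same contrast called 63.5% of all 15729 genes, 32.5% higher and 31.0% lower, so that the share called was below that of all genes and the split was 2 to 18. The median log2 difference of the members was -0.78, beside 0.04 over all genes.

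**Figure D4:**
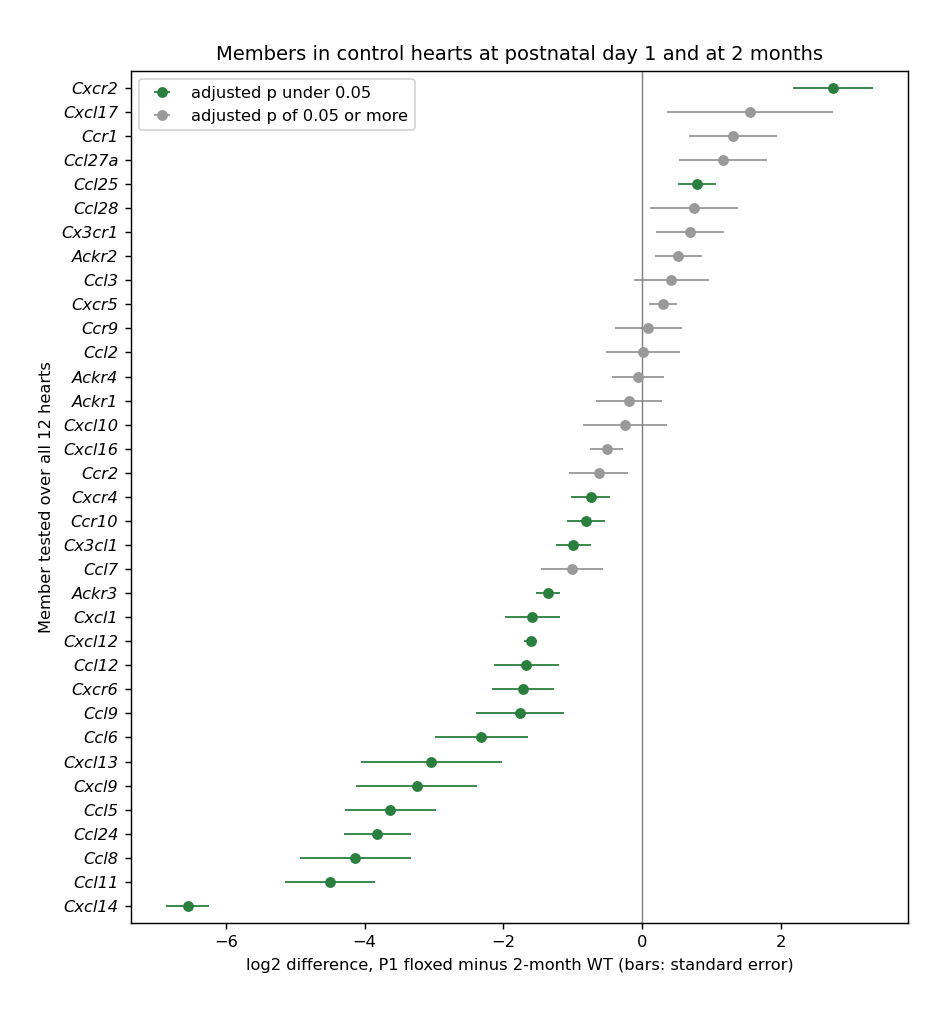
Log2 difference of P1 floxed minus 2-month WT hearts with its standard error for 35 members tested over all 12 hearts, ordered by size, in green where the adjusted p was under 0.05. Cxcl14 lies farthest to the left at -6.55, 17 green points lie left of 0 and 2, Ccl25 and Cxcr2, lie right.

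Of the 18 members lower at P1, 13 were ligands and 5 receptors. Cxcl14 was at 20.8 ± 2.41 CPM in WT and 0.221 ± 0.101 CPM in floxed hearts, a log2 difference of -6.55 (standard error 0.31, edgeR adjusted p = 4.78e-08). The eotaxins Ccl11 and Ccl24 were at 4.54 ± 0.745 and 1.88 ± 0.375 CPM in WT against 0.199 ± 0.123 and 0.130 ± 0.0556 CPM in floxed hearts, log2 differences of -4.50 and -3.82. Ccl8 had 3, 1 and 0 counts and Ccl5, a T cell and monocyte attractant, 1, 3 and 0 counts in the floxed hearts, beside 14, 9 and 34 and 11, 6 and 23 counts in WT hearts, and both were called lower. Cxcl12 was at 373 ± 32.2 against 122 ± 4.84 CPM, and its scavenger Ackr3 at 98.6 ± 3.59 against 38.3 ± 4.01 CPM, log2 differences of -1.61 and -1.36. Ccl6, Ccl9, Ccl12, Cxcl1, Cxcl9, Cxcl13, Cx3cl1, Ccr10, Cxcr4 and Cxcr6 were also called lower, by between 0.74 and 3.25 on the log2 scale. Of these, Ccl9, Cxcl13, Ccr10 and Cxcr4 lost the call without at least 1 of the control hearts, and Cxcl13 stood at -2.01 without WT heart 3. Markers of other cell types were also lower at P1 in the same contrast, with 7 of 9 macrophage and monocyte markers called lower (median log2 difference -1.31), 5 of 7 dendritic cell markers (-1.93), 5 of 5 adipose tissue markers (-6.96) and 4 of 6 cardiomyocyte markers (-0.77). Of the 6 fibroblast markers, 3 were called higher and 1 lower. Other lists went the opposite way, with 4 of 5 mast cell markers (2.46) and 2 of 5 tested lung epithelium markers (3.35) called higher and 0 lower. Their part in the age values was not tested.

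The 2 members higher at P1 were Cxcr2, at 0.132 ± 0.0433 CPM in WT and 0.887 ± 0.214 CPM in floxed hearts (log2 difference 2.74, edgeR adjusted p = 0.00142), and the thymic and gut ligand Ccl25, at 0.912 ± 0.3 and 1.57 ± 0.157 CPM (log2 difference 0.79, edgeR adjusted p = 0.0259), which was no longer called without WT heart 1 or 3 or floxed heart 2 or 3 (0.60 to 0.79). Neutrophil markers, which like Cxcr2 mark granulocytes, summed to 1.94 to 2.89 CPM in WT and 10.7 to 20.9 CPM in floxed hearts, each on the scale of its own comparison. The part of these cells in the Cxcr2 value was not tested. Ccl2 was at the same level at the 2 ages, 1.71 ± 0.521 and 1.74 ± 0.0525 CPM (log2 difference 0.02, standard error 0.53). Ackr4, Cxcl10 and Cx3cr1 were not called either.

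Counts of Cxcl17 and Cxcl15 were highest in hearts with lung epithelium markers. Cxcl17, a ligand of mucosal epithelia, had 43 counts in WT heart 3, 10 in KI/KI heart 4, 74 and 95 in floxed hearts 1 and 2 and 55 in cKO heart 4, and at most 5 in each of the other hearts. Cxcl15, known from lung epithelium, had 13, 5, 9, 6 and 4 counts in the same 5 hearts and at most 3 elsewhere. The 8 lung epithelium markers summed to 114, 36.8, 283, 469 and 199 CPM in those hearts, and to 23.4 CPM in cKO heart 6, which had 3 counts of each gene. Cxcl13, the B cell attractant and ligand of Cxcr5, was highest in WT heart 3 at 3.06 CPM among adults and in cKO heart 4 at 1.47 CPM at P1, beside at most 1.98 and 0.343 CPM in the others. Floxed hearts 1 and 2, with the highest lung marker sums, had 0.31 and 0.34 CPM of Cxcl13. KI/KI heart 5, with 0.303 CPM of lung markers, had 1.56 CPM of Cxcl13. Genotype values of Cxcl17 rest on the hearts with lung markers, and those of Cxcl13 on WT heart 3 and cKO heart 4. The part of lung tissue in these values was not tested.

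**Figure D5:**
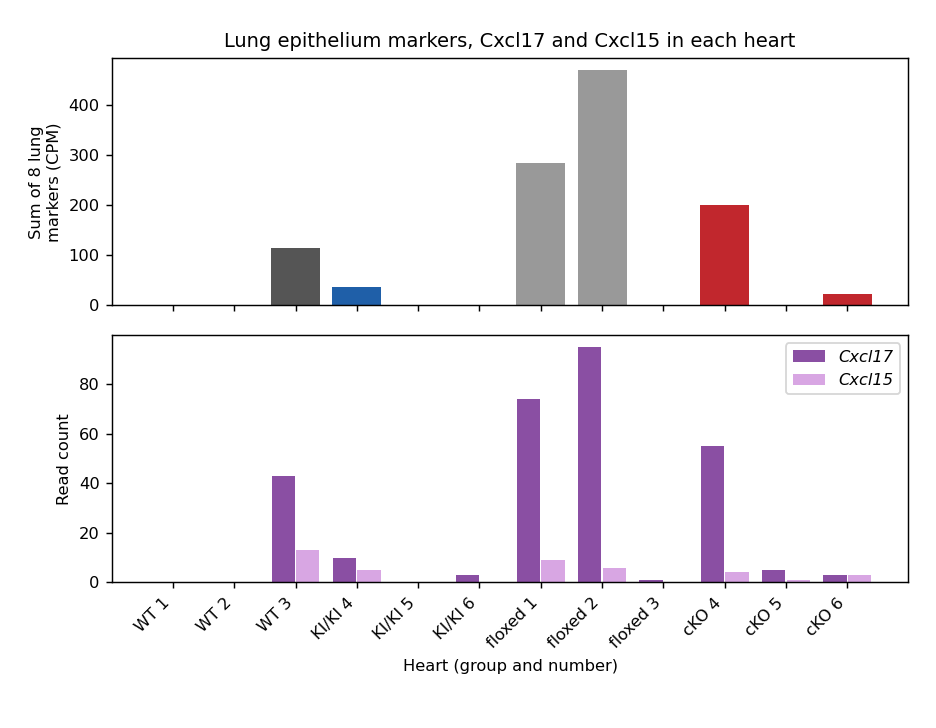
Upper bars give the sum of 8 lung epithelium markers in CPM and lower bars the read counts of Cxcl17 (dark) and Cxcl15 (light) in each of the 12 hearts. The hearts with high lung markers, WT 3, KI/KI 4, floxed 1 and 2 and cKO 4, are those with 10 or more counts of Cxcl17.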

How the data were processed

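RNA-Seq was performed on whole hearts of 12 mice in 4 groups of 3. The authors used Trim Galore for trimming, STAR (2.7.2b) and mm10 for alignment, SAMtools (1.9) for sorting, Bowtie2 (2.3.4.3) for quality checks and HTSeq for counting, and the deposited counts are whole numbers without normalization. The strand setting of the counting is not given in the sources used here, so antisense reads cannot be separated. Fits used edgeR 4.0.16 under R 4.3.3 (TMM, filterByExpr, robust quasi-likelihood), on the 6 hearts of a comparison or, for age and model, on all 12. A call is a Benjamini-Hochberg adjusted p under 0.05. Standard errors are the log2 fold change over the root of F. Named members reached 1 CPM in a group or were called. Ccl3, Cxcl2, Cxcl10, Cxcl15 and Ackr1 were added after their values were seen. For 1 member, counted in the totals, results are not reported here. Of neighbouring genes, up to 4 called per list with the smallest adjusted p are given. Members and lists were chosen with earlier results of these data known. Positions are from GENCODE vM21 (GRCm38). Scripts were tested on simulated counts. Alternatives were DESeq2 1.42.0, limma-voom (3.58.1), other normalization, filters and covariates, and left-out hearts. Replicates of each group differed by more than sampling noise. The p-values set a group difference against the spread between mice of a group, estimated over the hearts of a fit with 3 mice per group.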

Additional observations from a re-analysis of the deposited data

How the results depend on the processing

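Over the alternatives, 0 members were called in adult hearts and 0 for the model difference, except that DESeq2 called 2 higher and 1 lower in KI/KI hearts. At P1 the 3 members called higher became 7 with DESeq2, 0 with limma-voom, 5 without a low-count filter, 6 with all 12 hearts in one fit, 1 with Y-linked expression as a covariate, 5 with lung markers as a covariate, and 0 to 6 with a heart left out, most without cKO heart 6. Members lower at P1 were 0, but 1 with the Y-linked covariate and 0 to 1 with a heart left out. For age, the 2 higher became 1 with at least 10 counts in every library, 1 at a fold change above 2 and 1 to 3 with a heart left out, and the 18 lower became 9 with at least 10 counts in every library. Why these counts moved was not tested, beyond the fewer genes or hearts in a fit.

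Signs turned only for members that were not called. In adults, Ccl5 was at -0.062 with the Y-linked covariate, and Cxcl13 at 0.20 with limma-voom, 0.37 with the lung covariate and 0.72 without the WT and KI/KI hearts with lung markers. With a heart left out, log2 fold changes ran from -0.016 to 0.096 for Ackr3, -0.082 to 0.39 for Ccl25, -1.16 to 0.28 for Ccl27a, -0.011 to 1.26 for Ccl28, -0.29 to 0.62 for Ccl5, -0.052 to 0.26 for Ccl9, -0.0080 to 0.12 for Cxcl12 and -0.42 to 0.96 for Cxcl13. At P1 the Y-linked covariate gave -0.0019 for Ackr3, 0.19 for Ccl28, -0.39 for Ccr2, -2.40 for Cxcl13 and 0.11 for Cxcl9, and limma-voom -0.26 for Cxcl13. With a heart left out the P1 values ran from -0.54 to 0.15 for Ccl28, -0.16 to 0.30 for Ccr10, -0.33 to 0.41 for Ccr2, -2.18 to 1.73 for Cxcl13, -1.49 to 0.028 for Cxcl9 and -0.79 to 0.043 for Cxcr2.

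Replicate numbers recur between ages, but hearts of 1 number did not deviate together (correlations of -0.54 to 0.21). With a replicate block, 1 member was higher and 16 lower for age, and 0 were called for the model difference. Legacy quasi-dispersions and the joint omission of WT heart 3 and KI/KI heart 4 were chosen after seeing the data. Under 10 counts per heart, as for Ccl4 in floxed hearts, depth limits what can be detected.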
